A study of Mus musculus with 12 samples.

Results

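The membrane-spanning 4A genes described here are Ms4a4a, Ms4a4b, Ms4a4c, Ms4a6b, Ms4a6c, Ms4a6d, Ms4a7 and Ms4a8a, selected by symbol, and they are 8 of the 22243 genes in the table. They were measured by bulk RNA sequencing of polyA RNA from M1-activated bone marrow-derived macrophages (BM-Mɸs) of 6 LysMCre/ErbB4-floxed mice (ErbB4myeKO) and 6 ErbB4-floxed littermates without the recombinase (ErbB4FF), 1 of each from 6 litters on a C57Bl/6 background. All mice carried floxed Erbb4, and LysMCre deletes it in cells that use the lysozyme gene Lyz2, macrophages and neutrophils among them. All 12 cultures, each from its own mouse, were grown with M-CSF and then exposed to IFN-γ at 100 U/mL over 16 h and afterwards to LPS at 100 ng/mL over 6 h, so the RNA sequencing compares the genotypes within activated cells and has no unstimulated culture. No label gives the sex of an animal. The study used male and female littermates, so the mice of a pair may differ in sex. The study's methods give an age of 8 to 12 weeks for its C57Bl/6J mice and none for these litters. Values are TPM, which are scaled for transcript length and so can be compared between genes. The table holds principal isoforms only, with 59.0% to 74.7% of each library's TPM, so other isoforms of a gene are not in its value and places in the order of genes refer to these isoforms. A difference between genotypes is the log2 ratio of TPM + 0.5 in the library labelled ErbB4myeKO to that of its ErbB4FF littermate.

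Ms4a proteins cross the membrane several times, with both ends in the cytoplasm, and many of them sit beside other surface receptors and alter how these signal. The family's best known members outside macrophages are Ms4a1, which is CD20 of B cells, and Ms4a2, the beta chain of the high-affinity IgE receptor of mast cells. Among the genes described here, Ms4a4a marks tissue macrophages and has been described beside the β-glucan receptor Dectin-1, Ms4a4b is a T cell gene that associates with GITR, Ms4a7 is a macrophage and microglial gene, Ms4a8a has been described in alternatively activated macrophages, and Ms4a6d has been described beside the complement receptor Vsig4.

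Some of the genes, Ms4a4b with Ms4a4c and the Ms4a6 trio, are close relatives in sequence, which bears on how reads can be shared between them. The first 60 coding bases of the Ms4a4 genes are shown because Ms4a4c and Ms4a4b, the closest pair, had very different levels. Capitals mark bases that differ from Ms4a4c, which is given first, and the sequences are those of the deposited transcripts in GENCODE M21.
Ms4a4c: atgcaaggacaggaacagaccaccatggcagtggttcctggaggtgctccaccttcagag
Ms4a4b: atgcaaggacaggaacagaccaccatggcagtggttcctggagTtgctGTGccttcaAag
Ms4a4a: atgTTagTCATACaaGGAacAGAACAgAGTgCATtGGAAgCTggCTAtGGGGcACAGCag
Ms4a4b differed from Ms4a4c at 5 of these 60 bases and Ms4a4a at 41. Over their whole coding sequences Ms4a4b and Ms4a4c were 91.7% identical in bases, and 191 of their 226 encoded residues (84.5%) were the same. Ms4a4a matched Ms4a4c at 70.9% of aligned coding bases and 47.3% of aligned residues.

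The same stretch of the Ms4a6 genes, with capitals where a base differs from Ms4a6d, shows the trio that made up most of the family's RNA.
Ms4a6d: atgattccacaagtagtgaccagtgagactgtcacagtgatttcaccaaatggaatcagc
Ms4a6c: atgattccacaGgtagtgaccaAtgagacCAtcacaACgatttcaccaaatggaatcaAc
Ms4a6b: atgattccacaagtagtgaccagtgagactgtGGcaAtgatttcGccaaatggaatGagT
Ms4a6c differed from Ms4a6d at 7 of 60 bases and Ms4a6b at 6. The encoded proteins shared 72.4% of aligned residues between Ms4a6b and Ms4a6c, 71.3% between Ms4a6b and Ms4a6d and 65.0% between Ms4a6c and Ms4a6d. Ms4a6c was the shortest, at 217 codons against 244 in Ms4a6b and 247 in Ms4a6d. Pairs that are neither both Ms4a4 nor both Ms4a6 genes were between 29.6% and 39.2% identical in aligned residues, with Ms4a7 and Ms4a8a the least alike.

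Stretches of 31 bases, the length set for these comparisons, were counted where they also occur in transcripts of another gene. Ms4a4a, Ms4a7 and Ms4a8a shared none. Ms4a6c shared 23.6% of its stretches with other genes and 14.7% with Ms4a6b, Ms4a4c shared 17.6% and 13.4% with Ms4a4b, and Ms4a6d shared 6.70%. Most of each transcript can therefore be told from its relatives by exact sequence, while the division of reads from shared stretches is an estimate. Of the stretches of Ms4a4b, 4.79% also occur in Ms4a4c, so the low values of Ms4a4b are uncertain.

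Of the 8 genes, 7 have an entry in the RefSeq table of promoters, at positions of GRCm38.p6; Ms4a6d has none. The 250 bases before the RefSeq start of each close pair are printed because the relatives are alike there too. In Ms4a4c (chr19:11407411-11407660, plus strand) and Ms4a4b (chr19:11443308-11443557, plus strand), capitals mark GAGGAA, the core recognised by PU.1, the factor that drives macrophage and B cell genes.
Ms4a4c: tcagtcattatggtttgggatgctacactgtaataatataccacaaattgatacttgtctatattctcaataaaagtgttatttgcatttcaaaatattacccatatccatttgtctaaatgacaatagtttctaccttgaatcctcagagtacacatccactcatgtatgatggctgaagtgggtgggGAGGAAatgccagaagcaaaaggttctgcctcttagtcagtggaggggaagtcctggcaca
Ms4a4b: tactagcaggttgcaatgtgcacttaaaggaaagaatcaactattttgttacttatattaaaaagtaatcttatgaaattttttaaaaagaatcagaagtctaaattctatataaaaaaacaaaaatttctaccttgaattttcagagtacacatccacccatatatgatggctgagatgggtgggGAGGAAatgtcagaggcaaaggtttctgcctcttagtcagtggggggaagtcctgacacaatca
A stretch of 127 aligned bases was 89.8% identical between them, and the GAGGAA began at base -61 from the start in Ms4a4c and at -64 in Ms4a4b. This motif is common, as 28.3% of 32851 promoter windows (250 bases before to 50 after the start, both strands searched) held it. A match is a description of letters, and binding was not measured.

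In Ms4a6c (chr19:11469118-11469367, plus strand), Ms4a6b (chr19:11518309-11518558, plus strand) and Ms4a7 (chr19:11336147-11336396, minus strand), capitals mark GAAANNGAA on either strand, the core of the interferon-stimulated response element (ISRE) through which interferon-activated factors act.
Ms4a6c: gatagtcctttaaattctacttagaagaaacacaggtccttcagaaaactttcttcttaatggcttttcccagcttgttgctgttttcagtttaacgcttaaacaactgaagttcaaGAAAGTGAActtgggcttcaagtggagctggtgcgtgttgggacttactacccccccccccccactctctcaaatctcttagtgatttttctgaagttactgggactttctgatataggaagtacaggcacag
Ms4a6b: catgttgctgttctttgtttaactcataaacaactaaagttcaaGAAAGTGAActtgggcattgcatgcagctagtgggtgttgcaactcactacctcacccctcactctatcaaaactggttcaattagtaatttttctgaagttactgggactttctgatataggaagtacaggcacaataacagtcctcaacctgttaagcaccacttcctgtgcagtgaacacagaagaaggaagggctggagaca
Ms4a7: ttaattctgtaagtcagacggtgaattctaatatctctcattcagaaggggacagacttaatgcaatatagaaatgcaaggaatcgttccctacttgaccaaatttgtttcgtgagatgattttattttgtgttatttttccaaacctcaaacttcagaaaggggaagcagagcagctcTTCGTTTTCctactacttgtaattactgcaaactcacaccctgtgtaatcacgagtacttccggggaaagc
The ISRE core lay in 8.56% of the 32851 windows. Ms4a6c and Ms4a6b had it within a stretch of 170 aligned bases that was 89.4% identical, and it began at bases -133 and -206 from their RefSeq starts. In Ms4a7 it began at -71, and a second RefSeq window of this gene also held the core. The windows of Ms4a4a, Ms4a4b, Ms4a4c and Ms4a8a did not hold it. None of the members' windows held GGGANTTCC, a form of the NF-κB site that lay in 1.68% of all windows.

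Before the levels are described, the labels were checked. Mean Erbb4 was 0.583 TPM with an ErbB4myeKO label (SD 0.242, n = 6) and 0.450 TPM with an ErbB4FF label (SD 0.132, n = 6), with the former higher in 4 of 6 litters (two-sided exact permutation p = 0.250), so it did not separate the genotypes. TPM sum reads over all exons of the transcript, also those outside the floxed region. Lyz2, in which the recombinase is inserted, had log2 ratios between -1.20 and -0.81 in litters 1 to 5 but 1.43 in litter 6, and the neighbouring Lyz1 went from 1.41 to 2.19 in litters 1 to 5 and to -0.94 in litter 6. Litter 6 thus stood apart from the others in both genes and its littermates may carry each other's labels, which was not tested. The sign of every litter 6 ratio rests on those labels, so ratios of the members past the filter and counts of calls in the lists are also given without that litter. All 11 macrophage markers of a list had means past 1 TPM, among them Adgre1 (881 ± 121 TPM in ErbB4myeKO and 873 ± 127 TPM in ErbB4FF, SD, n = 6 each), and Lck of T cells and Ms4a2 of mast cells were at 0 TPM in all 12 libraries.

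The family was strongly but unevenly expressed in M1 BM-Mɸs. The 8 genes summed to between 2533.7 and 3909.6 TPM per library, and Ms4a6d, Ms4a6c and Ms4a6b supplied 76.5% to 84.5% of that sum. Among 22243 genes ordered by mean TPM, Ms4a6d was at place 81, Ms4a6c at 123, Ms4a6b at 176, Ms4a4c at 332, Ms4a7 at 478 and Ms4a4a at 941. Ms4a4b and Ms4a8a were at places 9507 and 10818, below the mean of 1 TPM that was set as the filter for tests.

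The 19 Ms4a genes form a cluster on chromosome 19 (GRCm38, chr19:10962293-11640851). The outermost of the 8 genes whose mean reached 1 TPM were Ms4a14 and Ms4a6d, and between these ends, 303.6 kb apart (chr19:11301249-11604849), 9 Ms4a genes lie. Ms4a4b was the only one of the 9 below 1 TPM. The highest mean among the other 10 was 0.222 TPM, that of Ms4a8a. The relation of level to place was not tested. Ms4a4c (chr19:11404770-11427246) and Ms4a4b (chr19:11443553-11467055) are adjacent and run in the same direction, with mean levels of 323 and 0.611 TPM.

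**Figure D1:**
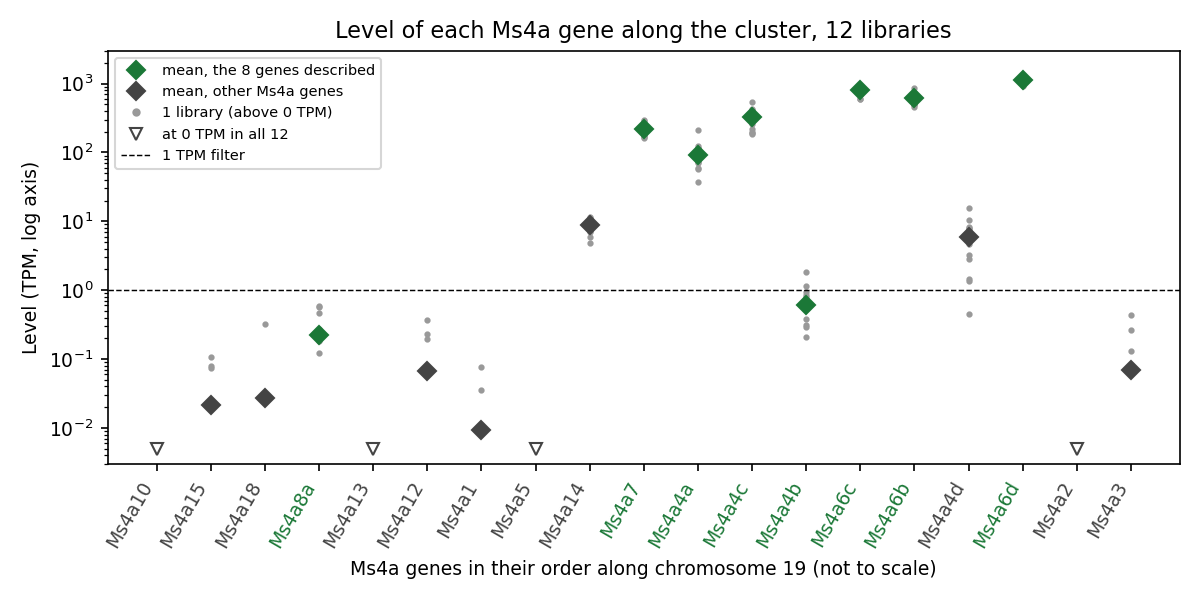
Level of the 19 Ms4a genes (TPM, log axis) in their order along chromosome 19, with diamonds for the mean of 12 libraries, dots for libraries above 0 and open triangles for genes at 0 in all 12. The genes above the dashed line at 1 TPM sit side by side from Ms4a14 to Ms4a6d, with Ms4a4b the exception at 0.611 TPM.

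The other Ms4a genes numbered 11, of which 2 passed the filter. Ms4a14 was 9.19 ± 2.18 TPM (SD, n = 6) in ErbB4myeKO and 8.39 ± 2.05 TPM (SD, n = 6) in ErbB4FF libraries. Ms4a4d was 6.92 ± 5.41 and 4.76 ± 3.19 TPM (SD, n = 6 each) and ranged from 0.451 to 15.4 TPM over the 12 libraries. The other 9 had no library above 0.434 TPM, and 4 of them were at 0 in every library.

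In the order of levels, 5 of 7 neighbouring pairs of members differed over the 6 litters, each with a two-sided exact sign-flip permutation p of 0.0312, the smallest that 6 litters allow, and a Benjamini-Hochberg adjusted p of 0.0438 over the 7 pairs. The level of Ms4a6d was 1.39-fold that of Ms4a6c, which was 1.34-fold that of Ms4a6b, which was 1.98-fold that of Ms4a4c. Ms4a7 was 2.53-fold above Ms4a4a, and Ms4a4a was 85.2-fold above Ms4a4b. These folds are of TPM + 0.5, and the order held in all 12 libraries for each of the 5 pairs. Ms4a4c and Ms4a7 did not pass the test, with a 1.41-fold ratio in levels (log2 difference 0.50 ± 0.46, SD, n = 6 litters) that had this order in 10 of 12 libraries (exact permutation p = 0.0938, adjusted p = 0.0938). Ms4a4b and Ms4a8a did not pass it either (1.45-fold, exact permutation p = 0.0625, adjusted p = 0.0729).

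Ms4a6d, the most abundant member, was between 1002.7 and 1295.8 TPM in ErbB4myeKO libraries (median 1165.5) and between 923.5 and 1268.3 TPM in ErbB4FF libraries (median 1144.6). Ms4a6c was between 596.8 and 933.7 TPM (median 916.4) and between 600.6 and 917.1 TPM (median 832.9) in the same order. Ms4a6b was between 452.7 and 753.5 TPM (median 598.5) and between 482.0 and 850.7 TPM (median 603.2). The genotypes overlapped almost wholly in all 3 genes.

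The Ms4a6 genes differed little between littermates. Mean log2 ratios were 0.04 for Ms4a6d (95% interval -0.08 to 0.15), 0.03 for Ms4a6c (-0.10 to 0.17) and -0.05 for Ms4a6b (-0.20 to 0.10), with limma adjusted p-values of 0.824, 0.882 and 0.813. Without litter 6 they were 0.02, 0.07 and -0.05. The interval of Ms4a6d runs from -5.11% to 10.9% in TPM + 0.5. Of the variance of Ms4a6d on the log2 scale, 95.8% lay between litters and 1.58% between genotypes, although the whole range was narrow, 1.40-fold over the 12 libraries. For Ms4a6c and Ms4a6b the share between litters was 94.7% and 94.6%. Litters 5 and 6 were the low ones for Ms4a6d and Ms4a6c in both genotypes, and litters 3, 5 and 6 for Ms4a6b.

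Ms4a6b was the only member with more than 1 principal transcript in the table. Its main transcript ENSMUST00000025580 had a mean of 490.9 TPM and held 74.1% to 85.2% of the gene's TPM, and ENSMUST00000163078 had 124.1 TPM. The log2 ratio was -0.05 ± 0.16 (SD, n = 6 litters) for the first and -0.10 ± 0.21 (SD, n = 6 litters) for the second, neither larger than its spread.

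Ms4a4c was the 1 member that was lower in the library labelled ErbB4myeKO of every litter. The ErbB4myeKO and ErbB4FF values were 375 and 422 TPM in litter 1, 303 and 547 TPM in litter 2, 192 and 197 TPM in litter 3, 404 and 415 TPM in litter 4, 184 and 219 TPM in litter 5 and 256 and 368 TPM in litter 6. The groups overlap when litters are ignored, since litters differ more than littermates, and the gap was wide in litters 2 and 6 and near nothing in litters 3 and 4.

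The mean log2 ratio of Ms4a4c was -0.31 (SE 0.12, 95% interval -0.58 to -0.04), with an unadjusted limma p of 0.0285 and an adjusted p of 0.603. The two-sided exact permutation p over the 64 swaps of genotype within litters was 0.0312, the smallest that 6 litters allow. If the labels of litter 6 were exchanged, Ms4a4c would be higher in the ErbB4myeKO library there and neither this p nor the count of 6 litters would hold, and litters 1 to 5 alone, lower in all 5, allow no exact permutation p below 0.0625. Over all 8780 genes tested, the share called was 0.0% at an adjusted p under 0.05, 8.21% at an unadjusted p under 0.05 and 2.31% for genes lower in the ErbB4myeKO library of all 6 litters. Of the 6 members tested, 0, 1 and 1 met these rules, the 1 being Ms4a4c, which was at place 370 of all genes by p. With 6 genes, 1 call cannot be set apart from that background, and no member passed the adjustment over all genes.

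The size of the Ms4a4c difference rested in part on litters 2 and 6. Without litter 2 its log2 ratio was -0.20 (limma adjusted p = 0.911), and without litter 6, the one that stood apart in Lyz2, it was -0.27 (limma adjusted p = 0.767). Without litter 5 it was -0.32 (limma adjusted p = 0.5005). In these 3 fits, in a fit with a covariate from Y-linked genes (-0.30) and in a fit without the block for littermates (-0.31, limma adjusted p = 1.00), the unadjusted p was also no longer under 0.05.

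**Figure D2:**
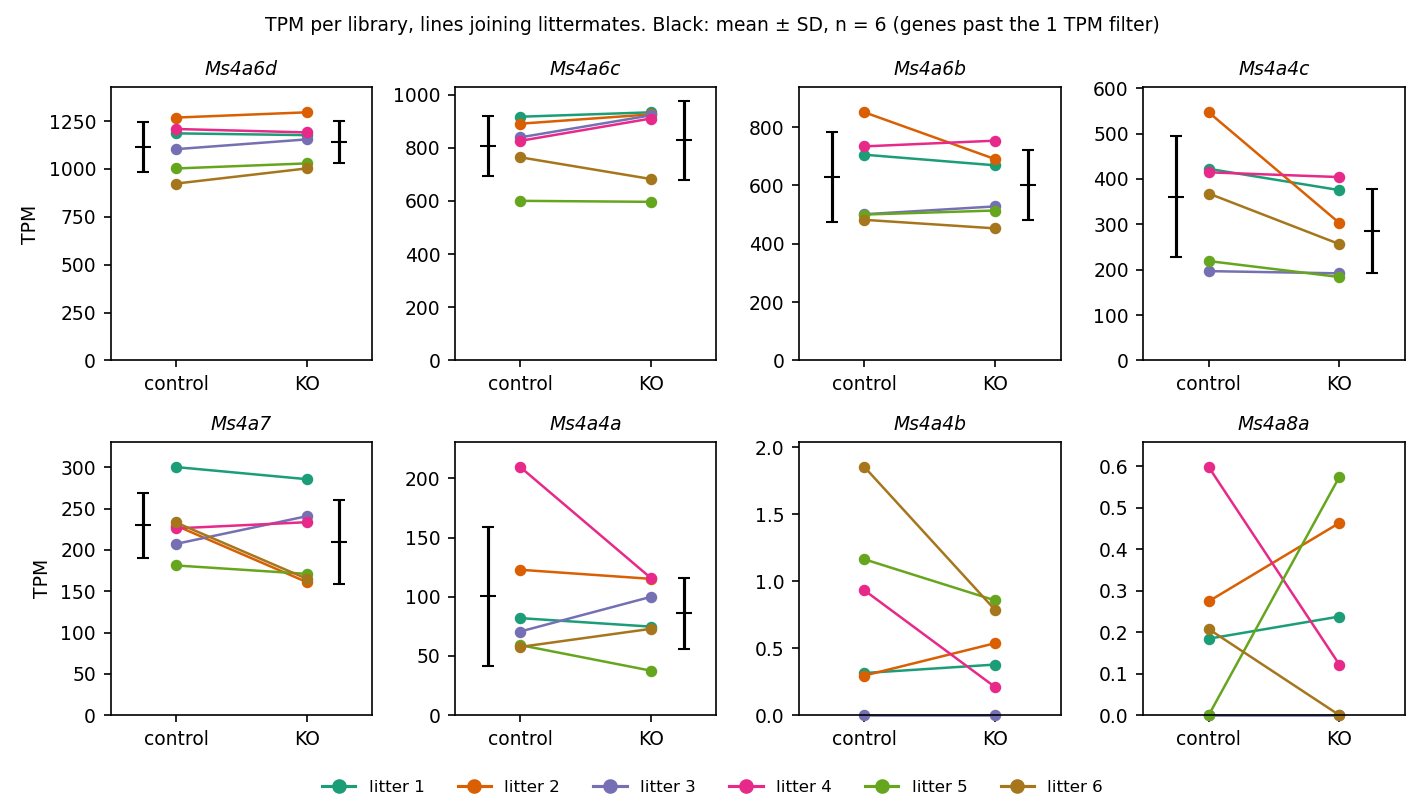
TPM of each member in the 12 libraries, control (ErbB4FF) at left and KO (ErbB4myeKO) at right in each panel, with coloured lines joining littermates and black bars for the mean ± SD of 6 libraries in the genes past 1 TPM. All 6 lines of Ms4a4c fall from control to KO, while the lines of Ms4a6d are nearly flat and the other genes have both rising and falling lines.

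Ms4a7 was lower in the ErbB4myeKO library of 4 of 6 litters and higher in 2. Its level was between 161 and 286 TPM in ErbB4myeKO libraries (median 202.4) and between 181 and 300 TPM in ErbB4FF libraries (median 227.9), with wide overlap. The mean log2 ratio was -0.15 (95% interval -0.40 to 0.10, limma adjusted p = 0.681), with -0.51 in litter 2 and -0.50 in litter 6 and between -0.08 and 0.22 in the others. The mean was -0.08 without litter 2 and -0.08 without litter 6.

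Ms4a4a, the Dectin-1 partner, was the most variable abundant member, with a 5.58-fold range over the 12 libraries. It was between 37.6 and 115.8 TPM in ErbB4myeKO libraries (median 87.4) and between 57.65 and 209.6 TPM in ErbB4FF libraries (median 76.3), which overlap. The highest value was that of the ErbB4FF library of litter 4. Its log2 ratios ran from -0.85 in litter 4 to 0.50 in litter 3, with a mean of -0.15 (95% interval -0.57 to 0.28, limma adjusted p = 0.813). Without litter 6 the mean was -0.25, and without litters 4 and 5 in turn it was -0.01 and -0.05.

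Ms4a4b and Ms4a8a were at the edge of detection and were not fitted with the other genes. Ms4a4b was listed at 0 TPM in both libraries of litter 3 and was between 0.21 and 1.85 TPM in the other 10. Its approximate normalized count at the mean level was 17.3, against 3329 for Ms4a4c. Ms4a8a was listed at 0 in 4 libraries and reached at most 0.599 TPM, about 1.43 normalized counts at its mean level. An exact 0 can be a failed estimate in these files, as the macrophage adaptor gene Tyrobp was listed at 0 in 1 library and reached 326.9 TPM in another. Genotype differences were not detectable at such levels (exact permutation p = 0.375 for Ms4a4b and 0.938 for Ms4a8a, each with n = 6 litters).

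**Figure D3:**
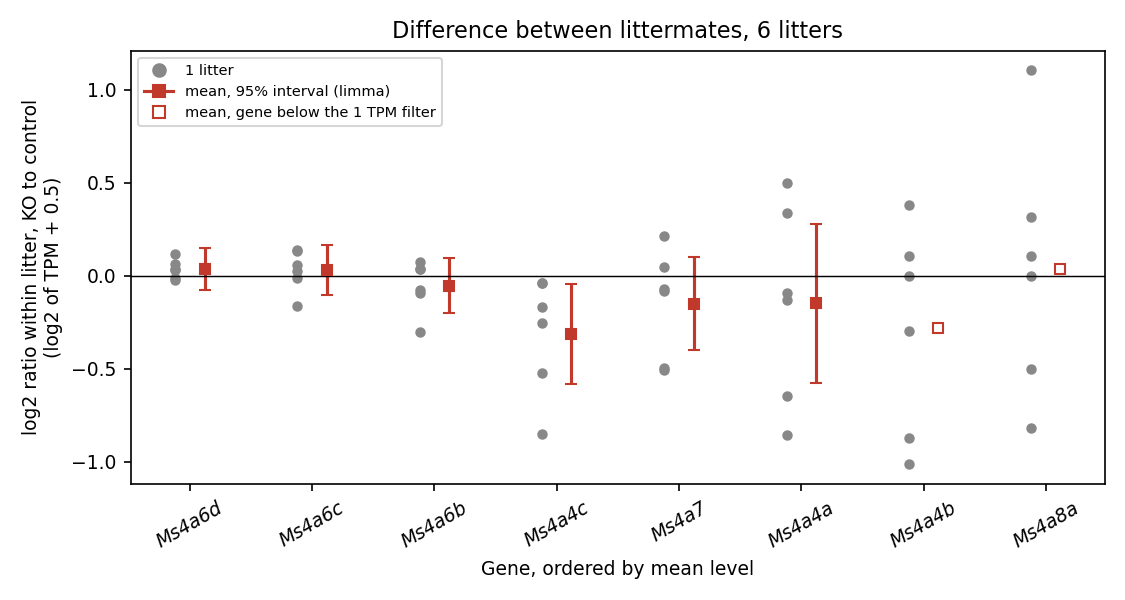
Log2 ratio of TPM + 0.5, KO (ErbB4myeKO) to control (ErbB4FF), in each of 6 litters (grey points) for the 8 members in order of level, with red squares and bars for the limma mean and 95% interval, and open squares for genes below the filter. The interval of Ms4a4c, -0.58 to -0.04, is the only one of the 6 that does not reach 0, and the points of the less abundant genes at the right spread more than those of Ms4a6d at the left.

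Across the 12 libraries, the genes whose log2 levels were most like a member's, given as descriptions over libraries that share litters, were different for each. For Ms4a4c the nearest were Ifi208, of the interferon-inducible PYHIN family (Pearson r = 0.97), Rab21, a small GTPase of endosomes (r = 0.94), and Trim34a, a TRIM family gene (r = 0.94). Their log2 ratios between genotypes were -0.57, -0.08 and -0.23, which are not independent of that of Ms4a4c, since the genes were picked for following it over the same libraries. The nearest to Ms4a6d were Sorl1, a sorting receptor (r = 0.95), Cd93 (r = 0.94) and Spop, a ubiquitin ligase adaptor (r = 0.94). Over the 6 litter ratios, which leave out differences between litters, their r with Ms4a6d was 0.28, 0.56 and -0.007.

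Ms4a6c was nearest to Prrg4 (r = 0.97), to Slamf7, a surface receptor of the SLAM family (r = 0.96), and to Cflar, an inhibitor of caspase-8 (r = 0.96). Over the 6 litter ratios their r with Ms4a6c was 0.58, 0.004 and 0.54. Ms4a6b was nearest to Gm4951 (r = 0.97), Gm12185 (r = 0.94) and Mfhas1 (r = 0.94). The nearest to Ms4a4a were Cemip2 (r = 0.91), Cd274, which encodes the checkpoint ligand PD-L1 (r = 0.91), and Vav3 (r = 0.90), and the nearest to Ms4a7 were Atp6ap2, Vrk2 and Rgs1 (r between 0.838 and 0.863), the lowest values among the 6. Between members, r over the 12 libraries ran from 0.240 for Ms4a7 and Ms4a4a to 0.859 for Ms4a6d and Ms4a6b. These values include the differences between litters. Over the 6 litter ratios, which leave those out, r was -0.06 for Ms4a6d and Ms4a6b, -0.66 for Ms4a6d and Ms4a6c, 0.92 for Ms4a6b and Ms4a4c and 0.93 for Ms4a4c and Ms4a7, as descriptions over 6 points. For the genes nearest to Ms4a4c, Ms4a6b, Ms4a4a and Ms4a7 it was between 0.47 and 0.93. Every r over litter ratios takes litter 6 with its doubted labels, and none is given with that litter turned or left out.

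The interferon-induced genes are of interest beside Ms4a4c, since every culture received IFN-γ. A list of 20 such genes, all past 1 TPM, had 7 lower and 0 higher in the libraries labelled ErbB4myeKO at an unadjusted limma p under 0.05, and 0 at the adjusted threshold, against 4.38% of all 8780 genes that were lower at that unadjusted threshold. The list's median log2 ratio was -0.19, and 19 of 20 were negative, beside a median of -0.0007 for all genes. The count lower was 4 without litter 1, 2 without litter 2, 1 without litter 4 and 4 without litter 6, while the median stayed between -0.21 and -0.15 over the litters left out. Slfn4 had the smallest p of the list (log2 ratio -0.68, limma adjusted p = 0.603), followed by the chemokine Cxcl10 (-0.18, limma adjusted p = 0.603). The list was chosen with earlier results of these libraries known, so its direction is no independent evidence.

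In each litter the list and Ms4a4c were set side by side. In litter 2 the list's median was -0.44 and Ms4a4c was -0.85, and in litter 6 the values were -0.34 and -0.52. In litters 1, 3 and 4 they were -0.11 and -0.17, -0.06 and -0.04, and -0.16 and -0.04, and in litter 5 they were 0.005 and -0.25. In litters 2 and 6, Ms4a7 was -0.51 and -0.50 and Ms4a6d was 0.03 and 0.12. As these ratios follow the labels, each litter 6 value would have the opposite sign if its labels were exchanged.

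**Figure D4:**
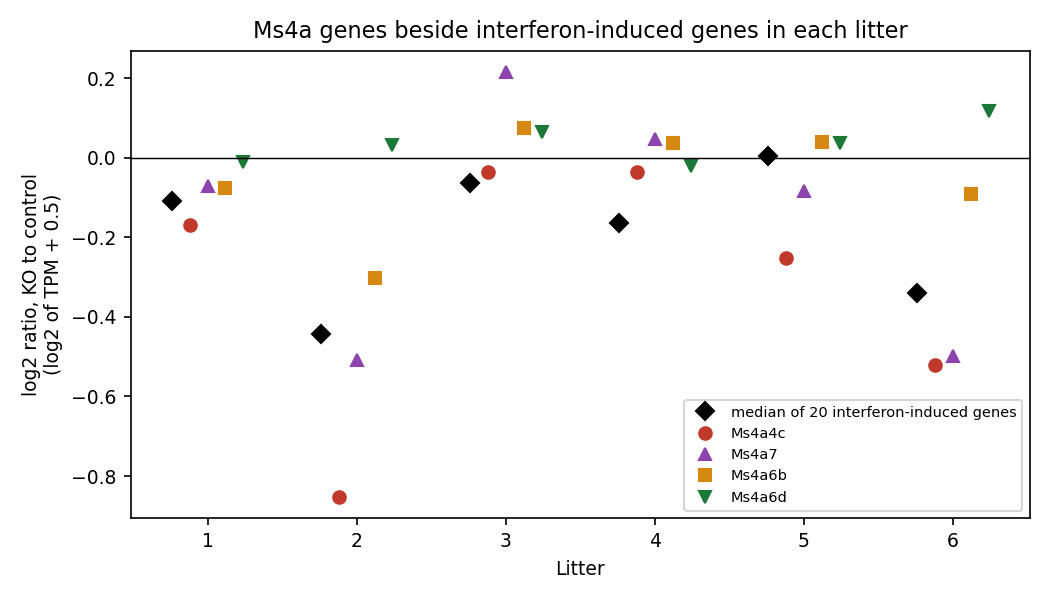
Log2 ratio, KO (ErbB4myeKO) to control (ErbB4FF), in each litter for the median of 20 interferon-induced genes (black diamonds) and for Ms4a4c, Ms4a7, Ms4a6b and Ms4a6d. As labelled, litters 2 and 6 hold the lowest values of the list, Ms4a4c and Ms4a7, while Ms4a6d stays between -0.02 and 0.12, and all litter 6 points would change sign if its labels were exchanged.

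Tmem176b and Tmem176a, whose proteins are distant relatives of the Ms4a family, were set beside the other Ms4a genes. Tmem176b was between 23.0 and 374.4 TPM in the ErbB4myeKO libraries and between 51.6 and 364.3 TPM in the ErbB4FF libraries, with a mean log2 ratio of -0.88 (SE 0.33, limma adjusted p = 0.603). Tmem176a had -0.84 (SE 0.35, limma adjusted p = 0.603). Both were lower in 5 of 6 litters, with the largest gap in litter 2 (-2.71 for Tmem176b and -2.41 for Tmem176a). Without litter 2 the means were -0.52 and -0.53, and without litter 6 they were -0.83 and -0.68. With Ms4a14 and Ms4a4d they make 4 tested genes, of which 2, the Tmem176 genes, were lower and 0 higher at an unadjusted limma p under 0.05, beside the 4.38% of all genes that were lower there. The log2 ratio was 0.49 for Ms4a4d, higher in 5 of 6 litters, and 0.13 for Ms4a14 (limma adjusted p = 0.641 and 0.769), so the 4 genes went both ways, and their median was -0.36, against -0.0007 for all genes. With so few genes this says nothing of the group. The count lower was 1 without litter 2 and 0 without litter 4 or 6, and the count higher was 1 without litter 4.

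The list of receptors and adaptors linked to Ms4a proteins had 7 of 9 genes past the filter and 0 called at either threshold, with a median log2 ratio of 0.05. The count was 0 in each direction without litter 6 as well, and 1 was lower without litter 3. Clec7a, which encodes Dectin-1, had a log2 ratio of 0.22 (limma adjusted p = 0.658), and Fcer1g, the adaptor of Fc receptors, had -0.12 (limma adjusted p = 0.603). Vsig4, the Ms4a6d partner, and Tnfrsf18, which encodes GITR, were below the filter. Of 12 genes of alternative activation and glucocorticoid response, 8 passed the filter and 0 were called after adjustment. At an unadjusted limma p under 0.05, 1 was lower, beside 4.38% of all genes, and 0 were higher. The 1 was the transcription factor Maf (log2 ratio -0.34, limma adjusted p = 0.603), and the count was 0 without litters 2, 4 or 6 in turn. Folr2 of that list, a folate receptor of macrophages, had -0.20 (limma adjusted p = 0.658), and the list's median was -0.19.

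Markers of other cells were set beside the members. The 9 T and NK cell markers summed to between 0 and 0.735 TPM in ErbB4myeKO libraries and between 0.0837 and 0.795 TPM in ErbB4FF libraries, beside at most 1.85 TPM for Ms4a4b. The 6 B cell markers summed to between 1.12 and 4.14 TPM and between 0.441 and 4.43 TPM, and the 5 mast cell and basophil markers to at most 2.82 and 3.99 TPM. The 7 dendritic cell markers summed to between 44.4 and 121.6 TPM and between 30.4 and 93.8 TPM. Of the 3 that were tested, all had positive log2 ratios. At an unadjusted limma p under 0.05, 1 was higher (Xcr1, log2 ratio 0.63, limma adjusted p = 0.603), beside 336 of all 8780 tested genes. The count of dendritic cell markers was 0 without litter 4 or 6 and 2 without litter 3.

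The 10 neutrophil markers summed to between 41.2 and 375 TPM and between 42.3 and 185.5 TPM, and were the highest in litters 5 and 6, where Ms4a6d and Ms4a6c were lowest. Of the 5 that were tested, 3 had positive and 2 negative log2 ratios, with a median of 0.09. At an unadjusted limma p under 0.05, 1 (Camp) was higher, beside 336 of all 8780 tested genes. The count of neutrophil markers was 1 without litter 6 as well, and 0 without litters 2, 3 or 5 in turn. In litter 6 the sum was 375 TPM in the ErbB4myeKO and 154.8 TPM in the ErbB4FF library, and in litter 2, which had the largest Ms4a4c difference, it was 41.2 and 43.7 TPM. The 11 macrophage markers summed to between 9850 and 13555 TPM and between 10773 and 14257 TPM, and 4 had positive and 7 negative log2 ratios, with a median of -0.12. Fcgr1, the high-affinity IgG receptor, was the 1 macrophage marker lower at an unadjusted limma p under 0.05 (log2 ratio -0.86, limma adjusted p = 0.603), beside 4.38% of all genes. Without litter 5 or 6 in turn, 2 macrophage markers were lower at that threshold. In bulk RNA, fewer cells of a type and less RNA per cell cannot be told apart, and the part that these marker levels have in the members' values was not tested.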

How the data were processed

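BM-Mɸ RNA from 12 mice was sequenced as single-end reads of 75 bases. The authors pseudoaligned the reads with kallisto (mm10 named in the submitters' processing notes, versions not given in the sources used here) and deposited TPM per transcript for principal isoforms of the APPRIS annotation. They also deposited sleuth's mean natural log of normalized estimated counts, used here only to relate TPM to counts (5.97 per TPM and kb over 6617 transcripts). Deposited columns of sleuth's own comparison (p-values, q-values, log2 ratio), which the study adjusted for litter and sex, were not used. Read depth of each library is not in the table, and the study gives only an approximate depth per sample, so precision rests on the spread between litters. Replicates are cultures of separate mice.

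Repeated lines (405 of 29213) were dropped and TPM of 28808 transcripts were summed per gene. A gene was tested if its mean reached 1 TPM (8780 genes). limma 3.58.1 in R 4.3.3 was fitted to log2(TPM + 0.5) with a litter term, no sex term and a trended prior. The p-values were adjusted over all tested genes by the Benjamini-Hochberg method. Folds on this scale understate changes of low genes. For single members a two-sided exact permutation test used the 64 swaps within litters, and neighbouring levels by exact sign flips over 6 litter means. Littermates were paired by the number in the library titles. They correlated at r = 0.273 to 0.774 after each gene's mean was removed, and r between mice of different litters is not given here. Biopython 1.88 aligned sequences, and positions came from GENCODE M21. Promoter windows are those of RefSeq.

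The members and gene lists were chosen with earlier results of these data known. Named are all members, other Ms4a genes above 1 TPM, Erbb4, the 3 genes most like each tested member, and the 2 genes with the smallest p of each list other than the cell markers. Lyz1, Lyz2, Tyrobp, Vsig4, Tnfrsf18 and the marker genes were added for checks or as background, after values were seen. Alternatives were no litter block, a Y-linked gene covariate, other pseudocounts and filters, rescaling by median ratios, no trend, the highest transcript alone and each litter left out. Leaving litters out of the list counts and the Tmem176 ratios was added after the data were seen.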

Additional observations from a re-analysis of the deposited data

How the results depend on the processing

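None of the 15 alternatives exchanged the doubted labels of litter 6, which would turn the sign of the mean for Ms4a7 and Ms4a6d. With the labels as deposited, the direction of the log2 ratio held for the 6 tested members under these alternatives, with ranges of -0.37 to -0.20 for Ms4a4c, -0.28 to -0.01 for Ms4a4a, -0.22 to -0.08 for Ms4a7, -0.08 to -0.003 for Ms4a6b, 0.01 to 0.07 for Ms4a6c and 0.02 to 0.05 for Ms4a6d. Their limma adjusted p-values were never under 0.5005. Ms4a8a changed sign (-0.18 to 0.21). Members at an unadjusted limma p under 0.05 numbered 1, and 0 without the replicate block for littermates, with the Y-linked covariate, or without litters 2, 5 or 6 (0 to 1 over the 6 litters left out in turn). Among all genes, 721 met that threshold, 75 without the block, 413 without litter 2 and 458 without litter 4 (413 to 864 over the litters left out). At the adjusted threshold the count of genes was 0, and 1 without litter 3 (0 to 1). Of the 7 neighbouring pairs of levels, 5 differed also in ErbB4FF libraries alone. The cause of these shifts was not tested. TPM carry no depth of a library, so no counting errors are given for Ms4a4b and Ms4a8a beside their approximate normalized counts.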
